A study of Mus musculus with 14 samples.

Results

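The small ribosomal subunit is built from 1 RNA and a set of proteins, and the genes of 28 of those proteins were followed in lung tumors with and without Setd2. The members were chosen by name, as the rows whose Ensembl identifiers carry the symbols of cytoplasmic small-subunit proteins in the GRCm38 annotation, and no measured value entered the choice. They are 28 of the 52550 genes in the table, and all 28 passed the expression filter that left 16836 genes for testing.

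The tumors were lung adenocarcinomas raised in mice of the KPY model, which carry Trp53 flox/flox and Rosa26 LSL-YFP/LSL-YFP alleles on a mixed B6J/129S4vJae background. A lentivirus that delivers Cre, Cas9 and a guide RNA started them, so that loss of p53 was shared by every tumor. KPY-Ctrl tumors (n = 6) received the control guide sgBGal and KPY-Setd2KO tumors (n = 8) received sgSetd2, which targets the methyltransferase that places trimethylation on lysine 36 of histone H3. The study describes stage-matched tumors that were dissected and sorted for live YFP-positive cells, whereas the deposited labels describe RNA from cell lines, and this conflict was not resolved. The study gives fewer mice than tumors, and the mouse of each tumor was not identified here. Tumors were treated as independent throughout, so the p-values measure the spread between tumors only.

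Small-subunit proteins decode the messenger RNA. Proteins of the head and of the body, platform and foot shape the mRNA entry and exit, transfer RNA sites and decoding center. Their mRNAs commonly start with a terminal oligopyrimidine tract, a C followed by a run of C and T, through which mTOR signaling sets their translation, and Rps6 is itself the classical substrate of S6 kinase downstream of mTOR. Mammalian genomes also hold many processed pseudogenes of these genes, which are intronless copies made from their mRNAs.

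Total counts per tumor ranged from 20072236 to 51828846. Setd2 was at 53.0 ± 8.51 CPM (counts scaled to a common library size by the TMM method; SD, n = 6) in KPY-Ctrl and at 31.7 ± 10.9 CPM (SD, n = 8) in KPY-Setd2KO, and the groups overlapped between 41.9 and 47.4 CPM (difference in mean log2 CPM of -0.81, two-sided exact permutation test over 3003 splits, p = 0.00466). In edgeR across all genes its log2 fold change was -0.74 (standard error 0.22, adjusted p = 0.175). The 10 epithelial markers had mean log2 CPM values of 8.99 to 11.15 in KPY-Ctrl and 8.29 to 10.86 in KPY-Setd2KO. Leukocyte markers varied widely between tumors of either genotype, with mean log2 CPM values over 12 genes of 3.33 to 8.66 and 3.13 to 8.90. None of those 12 genes was at 0 in every tumor. None was called by genotype in edgeR, which called 0 of all 16836 genes tested, and their median log2 fold change was 0.31. The summed level of the 12 genes ran from 556.8 to 9038.5 CPM in KPY-Ctrl and from 282.4 to 11984.3 CPM in KPY-Setd2KO. That of 13 macrophage markers ran from 462.4 to 43253.5 CPM and from 331.6 to 78624.3 CPM. That of the epithelial markers ran from 14794.7 to 70161.2 CPM and from 6619.4 to 61088.6 CPM. Median log2 fold changes were 0.55 for macrophage, 1.77 for neutrophil, 1.04 for endothelial and 1.11 for erythroid markers. They were -0.42 for fibroblast and -0.2 for epithelial markers, and edgeR called 0 of these genes.

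The counts of most members were divided between the gene and near-identical copies elsewhere in the genome. Near-identical copies were sought by sequence, as annotated transcripts that matched at least 90% of bases over at least 50% of a member's coding sequence. There were 262 such copies of 27 members, of which 257 were annotated as pseudogenes. Member rows held 10162730 counts over all tumors and copy rows held 4300772, so that 29.7% of the counts lay on copies. Of the counts on copies, 99.3% were on 30 rows with at least 1000 counts each.

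Members fell along a wide range of division. For 11 members, under 50% of the counts were on the gene's own row (Rps27, Rps12, Rps13, Rps23, Rps16, Fau, Rps7, Rps6, Rps27a, Rps28 and Rps29). For another 11, over 99% were (Rpsa, Rps24, Rps18, Rps10, Rps9, Rps4x, Rps19, Rps14, Rps3, Rps15 and Rps21), and 6 lay between (Rps20, Rps15a, Rps26, Rps25, Rps2 and Rps3a1). The reads were 75 bases long, and windows of 75 bases of coding sequence that occur unchanged in a copy cannot place a read. Among the members with under 50% on their own row, the median share of such windows was 100% (range 83.8% to 100%), and among those with over 99% it was 49.6% (0% to 88.4%).

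**Figure D1:**
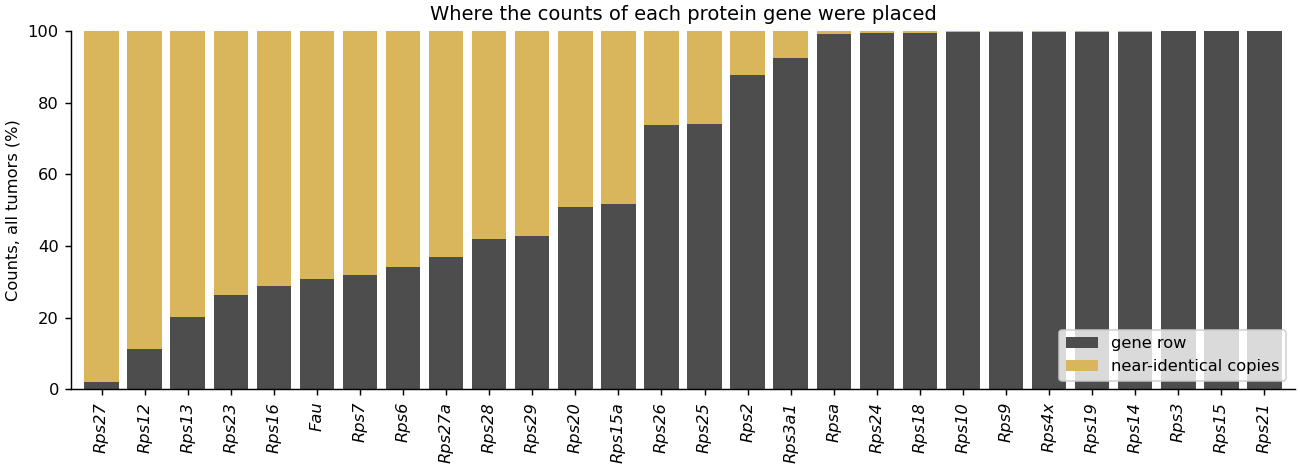
Bars give the percentage of counts, summed over the 14 tumors, on each gene's own row (dark) and on its near-identical copies (yellow), with the 28 members ordered by the first share. Rps27 is at 1.99%, 11 members lie under 50% and 11 lie over 99%.

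The pairs behind the strongest examples are shown here as coding sequence from the GENCODE transcripts of GRCm38, 5′ to 3′. Rps27 (chromosome 3, 90212522 to 90213651) encodes a zinc-finger protein, and Rps27rt (chromosome 9, 114982366 to 114982739) is a retrogene annotated as protein-coding that matches all 252 coding bases. The first 75 bases of each are given, with no capitals because nothing differs.
Rps27: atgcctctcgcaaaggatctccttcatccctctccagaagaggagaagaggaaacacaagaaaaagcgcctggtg
Rps27rt: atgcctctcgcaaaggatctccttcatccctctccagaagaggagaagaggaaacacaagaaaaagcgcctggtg
The Rps27 row held 4062 counts and the Rps27rt row held 199629. Rps27 alone was at 9.37 ± 6.12 CPM (SD, n = 6) in KPY-Ctrl, while gene and copies together were at 459.2 ± 185.6 CPM. Whether counts on Rps27rt came from its own transcripts or from those of Rps27 was not tested.

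Rps28 (chromosome 17, 33819027 to 33824562), which sits by the mRNA exit, and its pseudogene Gm10443 (chromosome 6, 86334031 to 86334240) are identical over all 207 coding bases, of which the first 75 are printed.
Rps28: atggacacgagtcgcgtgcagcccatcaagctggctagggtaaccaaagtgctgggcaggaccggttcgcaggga
Gm10443: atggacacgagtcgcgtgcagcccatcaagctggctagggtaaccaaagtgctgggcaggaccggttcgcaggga
Reads that lie within such a stretch match both loci equally.

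Rps7 (chromosome 12, 28630854 to 28635953), a body protein also needed for assembly of the subunit, and its transcribed pseudogene Gm6472 (chromosome X, 152909505 to 152910155) differ at 3 of 582 coding bases. Coding bases 6 to 143 are shown, which hold all 3 differences in capitals, T26G, G48A and G123T (the gene's base, the position counted from 1 at the first coding base, and the copy's base).
Rps7: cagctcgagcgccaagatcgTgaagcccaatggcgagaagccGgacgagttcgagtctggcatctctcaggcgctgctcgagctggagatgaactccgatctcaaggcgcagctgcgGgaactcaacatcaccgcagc
Gm6472: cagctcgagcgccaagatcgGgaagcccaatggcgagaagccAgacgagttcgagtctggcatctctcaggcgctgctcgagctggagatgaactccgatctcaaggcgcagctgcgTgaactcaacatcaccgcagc
For Rps7, 92.3% of the coding windows of read length occurred unchanged in a copy, and 31.9% of the counts were on the gene.

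Other members with a dominant copy followed the same layout. Counts of Rps6, the S6 kinase substrate, were 34.0% on the gene and mostly otherwise on Rps6-ps4, which is identical over its coding sequence. Rps12 kept 11.2%, beside Rps12l1 with 450930 counts and Rps12-ps3 with 91086. Rps23, a protein of the decoding center, kept 26.4% beside Rps23-ps1. Fau, which is made as a fusion of a ubiquitin-like protein with a ribosomal protein, kept 30.7% beside Gm9843. Rps27a, made as a fusion with ubiquitin, kept 36.8% beside Gm8430, which differs by A71G alone. In each case the copy named here is annotated as a pseudogene, except Rps12-ps3, which is annotated as protein-coding.

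Levels per length made the division visible. The gene rows spanned a 163.5-fold range in CPM per kb of coding sequence, from Rps27 at 29.5 to Rps24 at 4822, and 28.5-fold without Rps27. With the copies added the range narrowed to 6.42-fold, from Rps13 at 840.7 to Rps28 at 5401 CPM per kb of coding sequence. On that scale 25 of the 28 members lay within 2-fold of the median of 1883 CPM per kb, against 21 for the gene rows around their own median of 1241.2. Per kb of the union of annotated exons, the measure without copies, the highest gene rows were Rps3a1 at 2147.8, Rps15 at 1561.9 and Rps4x at 848.9 CPM per kb, and the lowest were Rps27 at 7.12, Rps13 at 28.5 and Rps15a at 50.1. Of the 5 members highest by that measure, 2 were among the 5 highest once copies were added and coding length was used.

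**Figure D2:**
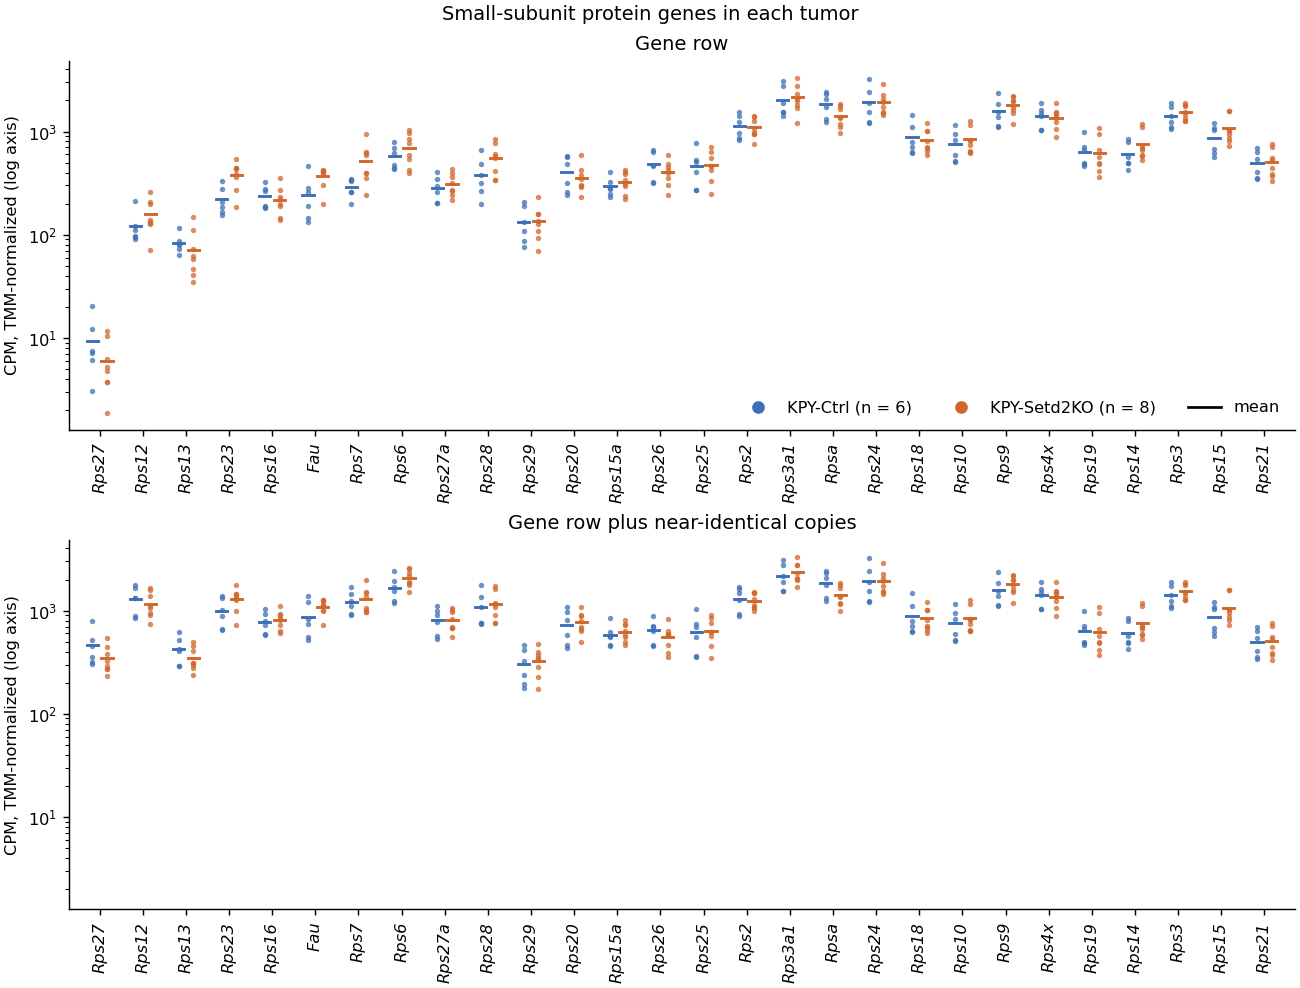
Each point is 1 tumor (blue, KPY-Ctrl, n = 6; orange, KPY-Setd2KO, n = 8) and each short line a group mean, in TMM-normalized CPM on a log axis, for the gene row (upper panel) and for the gene row plus near-identical copies (lower panel), with members ordered as in the plot of count placement. Rps27 lies between 1.86 and 20.3 CPM on its own row and between 234.3 and 798.6 CPM with copies, and the groups overlap for every member in both panels.

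By genotype, 0 of the 28 members were called by edgeR's quasi-likelihood test (adjusted p under 0.05), and neither was any of the 16836 genes (0% called). At an unadjusted p under 0.05, 2 members were higher in KPY-Setd2KO and 0 were lower, beside 6.93% and 6.8% of all genes tested (13.7% in either direction). No member's groups failed to overlap, against 0.57% of all genes. The median log2 fold change of the members was 0.06, with 17 above 0 and 11 below, beside a median of 0.03 over all genes. The sign of the members' median turned without KPY-Ctrl replicate 4 (-0.03) or replicate 5 (-0.03), without KPY-Setd2KO replicates 7 and 8 (-0.08), with the replicate number as a block (-0.04) and when counts were scaled by library size alone (-0.07, where the median of all genes was -0.11). DESeq2 called 2 members (Rps7 and Rps23), where it called 4.59% of genes, and limma voom called 0, with 3 at an unadjusted p under 0.05 (13.3% of genes). With the mean of the leukocyte markers as a covariate, edgeR called 1 member (Rps23), where it called 5.65% of genes.

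Adding the copies removed these calls. With copies added, edgeR called 0 members and had 0 at an unadjusted p under 0.05 (13.7% of genes), DESeq2 called 0 (4.62% of genes) and edgeR with the leukocyte covariate called 0 (5.7% of genes), with 1 at an unadjusted p under 0.05 (24.1% of genes). The median log2 fold change was then 0.08 and the range shrank from -0.65 to 0.85 on gene rows to -0.41 to 0.40. For 8 members the fold change moved by over 0.2, and for 3 (Rps12, Rps16 and Rps20) it changed sign. Members with under 50% of counts on their row had a median absolute log2 fold change of 0.37 on that row and 0.15 with copies, whereas for those with over 99% it was 0.14 either way. Spread between tumors of 1 genotype behaved likewise, with a median SD of 0.52 log2 CPM on the row and 0.42 with copies for the former and 0.42 on both for the latter. For members with over 99% on their row, copies add almost no counts. Their unchanged values follow from how they were grouped and test nothing.

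**Figure D3:**
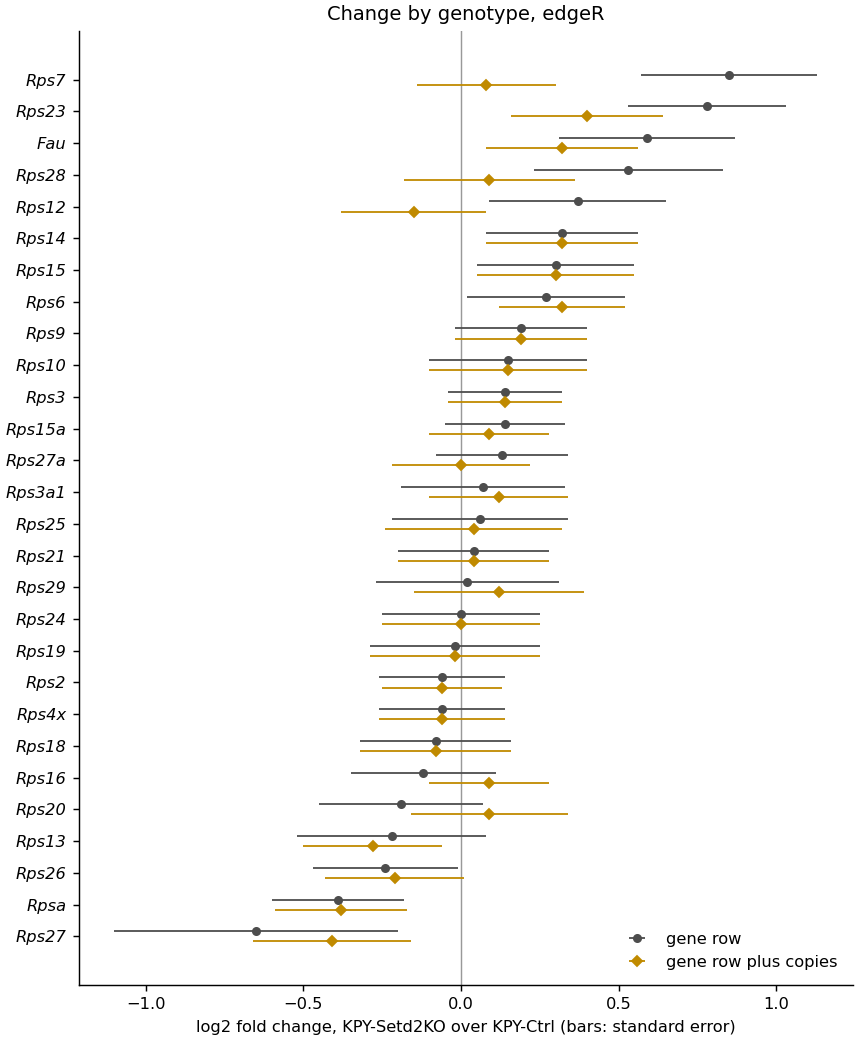
Points give the log2 fold change of each member, KPY-Setd2KO over KPY-Ctrl, from edgeR, with bars of 1 standard error, for the gene row (dark circles) and for the gene row plus copies (yellow diamonds), ordered by the first value. Rps7 moves from 0.85 to 0.08, Rps23 from 0.78 to 0.40 and Rps12 from 0.37 to -0.15. Rps14, Rps9 and Rps3 have almost no copy counts to add, so their values could not move.

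Among the body and platform proteins, Rps7 had the largest difference on its row. KPY-Ctrl tumors were at 256.6, 341.7, 347.2, 257.2, 200.3 and 332.9 CPM for replicates 1 to 6, and KPY-Setd2KO tumors at 395.3, 617.3, 591.1, 241.9, 357.7, 394.8, 636.2 and 945.1 CPM for replicates 1 to 8. All KPY-Setd2KO tumors but replicate 4 were above the highest KPY-Ctrl tumor. The log2 fold change was 0.85 (standard error 0.28, edgeR adjusted p = 0.203, DESeq2 adjusted p = 0.0491). Its copy Gm6472 had the opposite sign, at 902.9 CPM in KPY-Ctrl and 738.6 CPM in KPY-Setd2KO (log2 fold change -0.29, edgeR adjusted p = 0.661). Gene and copies together ran from 914.6 to 1674.3 CPM in KPY-Ctrl and from 974.2 to 1999.9 CPM in KPY-Setd2KO, with a log2 fold change of 0.08 (standard error 0.22, edgeR adjusted p = 0.914). The share of Rps7 counts on the gene was 19.9% to 28.1% in KPY-Ctrl and 24.8% to 58.8% in KPY-Setd2KO.

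Rps23 kept part of its difference when copies were added. Its row was at 155.6 to 335.0 CPM in KPY-Ctrl (median 197.2) and at 183.5 to 542.5 CPM in KPY-Setd2KO (median 408.6). Replicate 5 of KPY-Setd2KO was the lowest of its group on the row and, with copies, lower than 4 of the KPY-Ctrl tumors, and the groups overlapped. The log2 fold change of 0.78 (standard error 0.25) had an adjusted p of 0.198 with edgeR, 0.0415 with DESeq2 and 0.0326 with edgeR and the leukocyte covariate. With copies it was 0.40 (standard error 0.24, edgeR adjusted p = 0.493), at 982.3 ± 313.3 CPM (SD, n = 6) and 1296.4 ± 319.6 CPM (SD, n = 8). Rps23-ps1 alone had a log2 fold change of 0.27 (edgeR adjusted p = 0.675).

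Fau was at 131.9 to 463.7 CPM in KPY-Ctrl (median 225.0) and at 198.9 to 419.2 CPM in KPY-Setd2KO (median 406.8). Within KPY-Setd2KO, 6 of 8 tumors lay between 385.5 and 419.2 CPM, above all KPY-Ctrl tumors but replicate 6. Its log2 fold change was 0.59 (standard error 0.28, edgeR adjusted p = 0.376), and 0.32 (standard error 0.24, adjusted p = 0.611) with Gm9843 added. Rpsa, the laminin-receptor protein that holds the mRNA exit side of the subunit, differed in the other direction. It was at 1228.8 to 2393.4 CPM in KPY-Ctrl and at 974.9 to 1838.9 CPM in KPY-Setd2KO, and with 99.3% of counts on its row its log2 fold change was -0.39 (standard error 0.21, edgeR adjusted p = 0.443) on the row and -0.38 with copies. None of these differences passed the threshold in edgeR.

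Rps27 had a log2 fold change of -0.65 (standard error 0.45, edgeR adjusted p = 0.57) on 3.04 to 20.3 CPM in KPY-Ctrl and 1.86 to 11.7 CPM in KPY-Setd2KO. Without KPY-Ctrl replicate 3, the tumor at 20.3 CPM, the log2 fold change was -0.28, and that of Rpsa was then lower, at -0.36. Rps27 also had the widest spread within genotypes, at an SD of 0.88 log2 CPM, which was 0.46 with copies. Rps27rt, which carries nearly all of the pair's counts, was at 298.9 to 778.0 CPM and 232.3 to 526.2 CPM (log2 fold change -0.41, edgeR adjusted p = 0.516). Rps26, whose protein lies at the mRNA exit, was at 480.3 ± 149.9 CPM (SD, n = 6) and 406.5 ± 108.5 CPM (SD, n = 8), with a log2 fold change of -0.24 (standard error 0.23, edgeR adjusted p = 0.721). Rps13, a protein of the body, was at 63.9 to 116.3 CPM in KPY-Ctrl and 34.8 to 147.8 CPM in KPY-Setd2KO on its row, a log2 fold change of -0.22 (standard error 0.30, edgeR adjusted p = 0.829).

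Of the remaining body members, Rps14, which lines the mRNA exit and is lost in a myelodysplastic syndrome, had a log2 fold change of 0.32 (standard error 0.24) at 605.4 ± 177.6 and 755.0 ± 243.7 CPM, and 99.9% of its counts were on the gene. Rps6 was at 577.1 ± 148.3 and 697.1 ± 243.0 CPM on its row and at 1662.4 ± 457.3 and 2077.5 ± 380.6 CPM with copies, where its log2 fold change was 0.32 (standard error 0.20, edgeR adjusted p = 0.517). Rps9, which helps set the accuracy of decoding, had 0.19, Rps15a 0.14, Rps3a1 0.07 and Rps21 0.04. Rps24, mutated in some families with Diamond-Blackfan anemia, had -0.0022 at 1925.6 ± 787.1 and 1922.7 ± 484.0 CPM. Rps2, at the mRNA entry, and the X-linked Rps4x both had -0.06, and all of these had edgeR adjusted p-values of at least 0.616 on their gene rows.

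The 12 members of the head had log2 fold changes from -0.19 to 0.53 with a median of 0.09, 8 of them above 0, beside a median of 0.05 and 9 of 16 above 0 in the body, platform and foot. At an unadjusted p under 0.05 there were 0 of 12 head members and 2 of 16 others, beside 13.7% of all genes tested.

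Rps28 had the largest head value. Its row was at 196.2 to 660.9 CPM in KPY-Ctrl and 335.8 to 844.3 CPM in KPY-Setd2KO, with a log2 fold change of 0.53 (standard error 0.30, edgeR adjusted p = 0.463), and the copy Gm10443 was at 696.2 and 590.8 CPM on average (log2 fold change -0.24, edgeR adjusted p = 0.765). Together they were at 1080.6 ± 425.5 CPM (SD, n = 6) and 1146.1 ± 364.4 CPM (SD, n = 8), a log2 fold change of 0.09. The share of Rps28 counts on the gene was 25.9% to 41.6% in KPY-Ctrl and 44.3% to 55.9% in KPY-Setd2KO, which did not overlap. Rps28 was the only 1 of the 28 members for which this share did not overlap, and it is given without a test. Copies of other genes were not sought, so no share over all genes stands beside it. For 11 members over 99% of counts were on the gene, which left this share little room to differ. All 133 coding windows of read length in Rps28 occurred unchanged in a copy.

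Rps12, a protein of the beak of the head, also changed with its copies. The row was at 122.0 ± 46.4 CPM (SD, n = 6) and 157.9 ± 58.8 CPM (SD, n = 8), a log2 fold change of 0.37 (standard error 0.28, edgeR adjusted p = 0.617). Rps12-ps3 was at 144.6 to 350.3 CPM in KPY-Ctrl and 66.4 to 222.6 CPM in KPY-Setd2KO (log2 fold change -0.92, edgeR adjusted p = 0.202), and the sum with Rps12l1 had -0.15 (standard error 0.23, edgeR adjusted p = 0.847). Rps20, also beside Rps3 in the head, had -0.19 (standard error 0.26) on its row and 0.09 (standard error 0.25) with copies. The copy of Rps20, Gm4332, was at 318.3 CPM in KPY-Ctrl and 415.2 CPM in KPY-Setd2KO on average. Rps16, whose tail reaches toward the transfer RNA, had -0.12 on its row and 0.09 with copies.

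**Figure D4:**
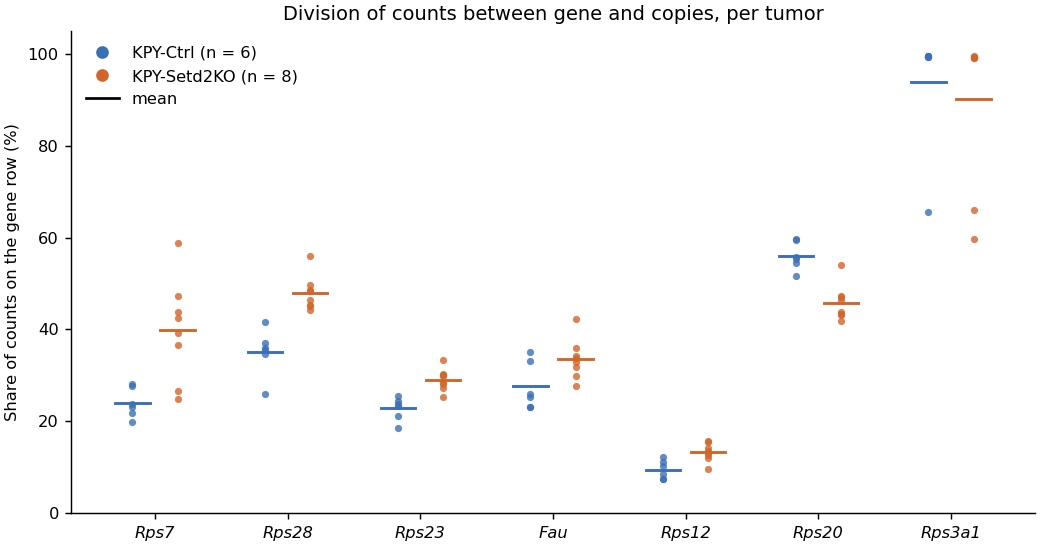
Points give, for each tumor (blue, KPY-Ctrl, n = 6; orange, KPY-Setd2KO, n = 8), the percentage of a member's counts that lay on the gene's own row rather than on its copies, with lines at group means. For Rps28 the groups do not overlap (at most 41.6% against at least 44.3%), and for Rps3a1 the 3 tumors at 59.7% to 66.1% stand apart from the others at 99% or more.

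Other head proteins had nearly all their counts on the gene. Rps3, which guides mRNA into the subunit, was the steadiest member, with an SD within genotypes of 0.28 log2 CPM and levels of 1408.1 ± 344.0 and 1547.1 ± 246.9 CPM (log2 fold change 0.14, standard error 0.18, edgeR adjusted p = 0.819). Rps15, needed late in assembly of the subunit, was at 869.2 ± 278.2 and 1070.2 ± 331.6 CPM (log2 fold change 0.30, standard error 0.25, edgeR adjusted p = 0.657). Rps19, the gene most often mutated in Diamond-Blackfan anemia, was at 632.7 ± 200.5 and 624.8 ± 255.1 CPM, a log2 fold change of -0.02 (standard error 0.27). Rps10, at the tip of the head, had 0.15, and Rps18, which forms a bridge to the large subunit, had -0.08. Of the head members with divided counts, Rps25, known for its role in initiation from internal entry sites, had 0.06 on its row and 0.04 with copies. Rps27a had 0.13 on its row (standard error 0.21) and a value close to 0 with copies (standard error 0.22).

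Rps29, a zinc-binding head protein beside Rps3, was at 75.7 to 206.4 CPM in KPY-Ctrl and 69.7 to 231.9 CPM in KPY-Setd2KO, with log2 fold changes of 0.02 on its row and 0.12 with copies (standard errors 0.29 and 0.27).

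Some of the copies separated 3 tumors from the other 11 without regard to genotype, a pattern picked out after the values were seen. Other copies did not, among them Rps6-ps4, Gm8430 and Gm10443. In KPY-Ctrl replicate 1 and KPY-Setd2KO replicates 1 and 4, Rps3a2 was at 392.6, 508.3 and 577.7 CPM, against 1.19 to 7.63 CPM in the others. In the same tumors Rps3a3 was at 340.0, 416.4 and 230.5 CPM, against 1.02 to 2.91, and Rps13-ps1 was at 160.2, 153.4 and 67.8 CPM, against at most 0.65. Rps15a-ps8 (25.5, 37.8 and 24.7 CPM, against at most 0.194) and Rps2-ps10 (626.3, 506.9 and 297.8 CPM, against 15.7 to 102.0) were high there too.

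The division was seen most clearly for Rps3a1, a body protein. It had 59.7% to 66.1% of its counts on the gene in these 3 tumors and 99.1% to 99.6% in the others. Its row was at 1420.1, 1817.1 and 1206.3 CPM there, and gene and copies together at 2163.3, 2751.0 and 2021.7 CPM, within the range of 1547.0 to 3311.1 CPM of the others. Without the 3 tumors the log2 fold change of Rps3a1 was 0.12 both on its row and with copies, that of Rps2 was 0.003 and 0.0024, and that of Rps13 was -0.36 and -0.20, and edgeR called 0 members in either fit. These 3 tumors were among the 7 with leukocyte-marker scores above 8. In the others of those 7, Rps3a2 was at 2.16 and 2.48 CPM (KPY-Ctrl replicates 2 and 6) and at 2.77 and 7.19 CPM (KPY-Setd2KO replicates 2 and 3). The part of the leukocyte signal in the copy rows was not tested.

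Another copy, Rps27a-ps2, also picked out after the values were seen, was low in every KPY-Setd2KO tumor and was not called by edgeR. It was at 60.1, 36.0, 26.6, 15.9, 4.14 and 0.27 CPM in KPY-Ctrl replicates 1 to 6, and at 0 to 1.34 CPM in the 8 KPY-Setd2KO tumors, with an edgeR adjusted p of 0.116. KPY-Ctrl replicate 6 alone overlapped with KPY-Setd2KO. The row holds 6268 counts beside 247902 on Gm8430, so that the sum of Rps27a with its copies was at 810.8 ± 229.0 CPM (SD, n = 6) and 812.7 ± 189.9 CPM (SD, n = 8).

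Summed over the 28 members, the small-subunit mRNAs took 1.41% to 2.66% of normalized counts in KPY-Ctrl (mean 1.98%) and 1.48% to 2.80% in KPY-Setd2KO (mean 2.09%). The ratio of the means was 1.05 on gene rows and 1.04 with copies, while the highest tumor exceeded the lowest by 1.89-fold within either genotype. Without TMM scaling the order of the means turned. The members then took 1.7% to 2.88% of counts in KPY-Ctrl (mean 2.08%) and 1.41% to 2.99% in KPY-Setd2KO (mean 2.01%). In bulk RNA, more cells that express these genes strongly and more of their RNA per cell cannot be told apart. The 7 tumors with leukocyte-marker scores of 8.21 to 8.90 had summed shares of 1.62% to 2.66% of normalized counts. The 7 with scores of 3.13 to 5.35 had 1.41% to 2.80%, so on this scale high and low sums were found on either side. Without TMM scaling the ranges were 1.41% to 2.56% and 1.72% to 2.99%.

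**Figure D5:**
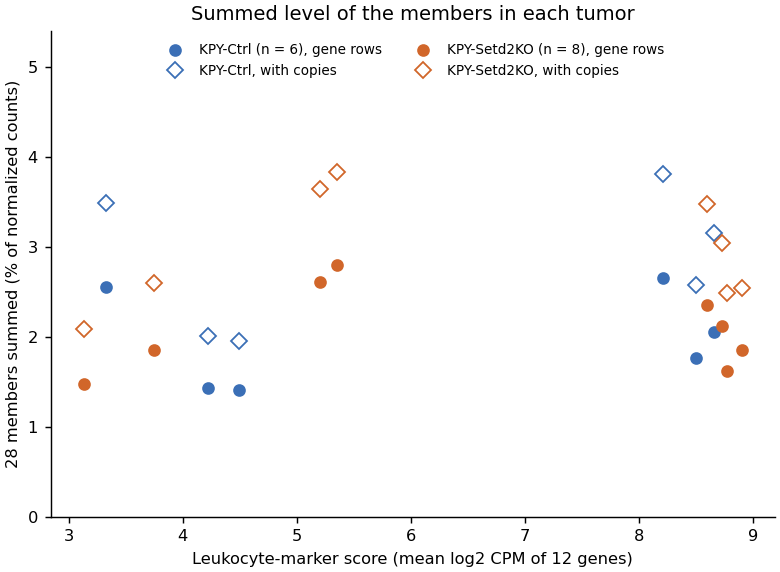
Each tumor is plotted by its leukocyte-marker score (mean log2 CPM of 12 genes, x axis) and by the summed level of the 28 members as a percentage of normalized counts (y axis), on gene rows (filled circles) and with copies (open diamonds), for KPY-Ctrl (blue, n = 6) and KPY-Setd2KO (orange, n = 8). Sums on gene rows run from 1.41% to 2.80% and do not separate the genotypes or the ends of the score.

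Members moved together from tumor to tumor. After each genotype's mean was subtracted, the median Pearson's r over the 378 pairs of members was 0.70 across the 14 tumors on gene rows and 0.82 with copies, and the share of pairs above 0.5 was 77.2% and 93.9%. These are descriptions without the same values over other genes, and the tumors share normalization and, in part, mice. On gene rows the members least like the others were Rps27 (median r 0.38), Rps13 (0.49) and Rps7 (0.50), each with divided counts. Next was Rps19 (0.58), with 99.8% of counts on its row, while Rps27a (0.80) and Rps6 (0.77), also divided, were among the higher. With copies Rps27, Rps13 and Rps7 had 0.78, 0.77 and 0.83, and the lowest were Rps25 (0.65) and Rps19 (0.69).

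The annotated transcription starts were read for the pyrimidine tract, because it is the shared regulatory feature of these mRNAs. RefSeq promoter entries (GRCm38.p6) were matched for 24 of the 28 members, and those of Rps14, Rps20, Rps27a and Rps29 were not. A tract was counted where the annotated start was a C followed by at least 4 further C or T bases on the gene's strand. It was present for 7 of 24 members (29.2%), for 7 of 34 large-subunit genes and for 3.01% of the 27025 genes with an entry. Each sequence holds the 15 bases before the annotated start and 15 from it on, with the tract in capitals.
Fau, chr19:6057932-6057961, plus strand: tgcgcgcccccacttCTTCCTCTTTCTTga
Rps10, chr17:27635230-27635259, minus strand: gcgccgcgcacgcccCTTCCTTTCCagcct
Rps18, chr17:33955651-33955680, minus strand: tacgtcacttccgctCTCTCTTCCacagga
Rps6, chr4:86857353-86857382, minus strand: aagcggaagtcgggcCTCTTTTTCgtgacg
Rps15a, chr7:118116133-118116162, minus strand: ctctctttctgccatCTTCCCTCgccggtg
Rps27, chr3:90213634-90213663, minus strand: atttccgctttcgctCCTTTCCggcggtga
Rps21, chr2:180257364-180257393, plus strand: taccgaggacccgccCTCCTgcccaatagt
The tract ran from 5 bases in Rps21 to 13 in Fau, and a member without a match has only no such letters at the annotated base.

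The large subunit was compared as a whole list. Of 47 large-subunit genes, 0 passed an adjusted p of 0.05 in edgeR, 8 had an unadjusted p under 0.05 and a higher value in KPY-Setd2KO and 0 a lower one (6.93% and 6.8% of all genes), with a median log2 fold change of 0.12. DESeq2 called 1 of them and the covariate fit 2, all higher, where they called 4.59% and 5.65% of all genes. Rpl17 had the largest value, at 270.8 ± 70.3 and 491.1 ± 95.7 CPM (log2 fold change 0.86, edgeR adjusted p = 0.116, DESeq2 adjusted p = 0.000305). Copies of genes outside the 28 members were not sought.

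Factors that build the small subunit and those that act on its mRNAs were read against the same shares of all genes, 6.93% higher and 6.8% lower at an unadjusted p under 0.05. Among 25 assembly factors the median was 0.06, with 3 higher and 2 lower at an unadjusted p under 0.05, 0 called by edgeR, and 2 called as higher by DESeq2 (4.59% of all genes) and 2 by the covariate fit (5.65%). Utp3, a component of the early processome, was at 54.9 to 90.2 CPM in KPY-Ctrl and 89.1 to 121.5 CPM in KPY-Setd2KO (log2 fold change 0.67, edgeR adjusted p = 0.116, DESeq2 adjusted p = 1.14e-05, covariate fit adjusted p = 0.0125). Among 17 other mRNAs with a pyrimidine tract the median was 0.23, 13 were above 0, 3 were higher at an unadjusted p under 0.05, 0 were called by edgeR, 1 by DESeq2 and 2 by the covariate fit, all higher. Npm1, a nucleolar chaperone, had 0.57 (edgeR adjusted p = 0.284, DESeq2 adjusted p = 0.112, covariate fit adjusted p = 0.0315). Hnrnpa1, an RNA-binding protein, had 0.55 (edgeR adjusted p = 0.219, DESeq2 adjusted p = 0.0459, covariate fit adjusted p = 0.0199). Of 14 S6 kinase and tract regulators, 0 were called by edgeR and 2 were lower at an unadjusted p under 0.05, with a median of -0.11. DESeq2 called 0 of these and the covariate fit called 2, both lower. Mycn, a transcription factor of the Myc family, was at 2.77 to 26.9 CPM in KPY-Ctrl and 0.258 to 11.7 CPM in KPY-Setd2KO (log2 fold change -1.75, edgeR adjusted p = 0.269, covariate fit adjusted p = 0.0338). Of 8 paralogs of ribosomal proteins, 7 were tested and 0 were called by edgeR or had an unadjusted p under 0.05. Among them Rpl39l had 1.11 (standard error 1.14) at no more than 3.97 CPM in any tumor, and Rps27l had 0.07.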

How the data were processed

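Bulk RNA-seq of 14 tumors (6 KPY-Ctrl, 8 KPY-Setd2KO) was used. The values are estimated counts for each Ensembl gene, rounded to integers as deposited by the authors, who made them from single-end reads with Salmon 0.8.2 against GRCm38.p5 (methods and submitters' processing notes) and did not normalize them. Salmon divides a read that matches several transcripts among them. Symbols, coordinates and coding sequences came from GENCODE release M21 of GRCm38, which matched 52403 of 52550 rows, and copies were found with blastn 2.17.0 on the plus strand.

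Genotypes were compared with edgeR 4.0.16 in R 4.3.3 (TMM, expression filter, robust quasi-likelihood test, Benjamini-Hochberg adjustment over all genes tested), on the counts as deposited. DESeq2 1.42.0, limma 3.58.1 and other settings were alternatives. The threshold for a call was an adjusted p under 0.05, and log2 CPM used a prior count of 2. At totals of 20072236 to 51828846 counts per tumor, counting error is small for these genes beside the differences between tumors. The error from dividing reads between a gene and its copies is separate from this and was not measured. The edgeR fit was also run on simulated counts with known changes, drawn independently for each gene and tumor. That simulation held no leukocyte signal and no reads divided among copies, and its outcome is not given here.

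The members and lists were chosen with earlier results of these data known, and the search for copies was added after the counts were seen. Every member is named. Full statistics were given to members with the smallest p-values and with extreme fold changes, levels or spreads, and lists were named by their smallest p and largest change. The 5 largest levels were compared across length measures. Copies of genes outside the members were not analysed here. Some items of the model and of the subunit are not reported here.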

Additional observations from a re-analysis of the deposited data

Results flagged for a closer look

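Among 62 groups of values examined for a tumor set apart from the others of its genotype by Dixon's criterion, 2 were found, and chance gives about 1 in 20. Rps12 was at 7.74 log2 CPM on its row in KPY-Ctrl replicate 6, where the other KPY-Ctrl tumors lay between 6.50 and 6.93. Fau was at 7.64 log2 CPM on its row in KPY-Setd2KO replicate 5, where the others lay between 8.23 and 8.71.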

How the results depend on the processing

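The call of 0 members held in edgeR with RLE size factors, library size alone, no filter, named pseudogene rows, copies and left-out tumors, and in limma voom. It did not with DESeq2 (2 members, 770 genes, Setd2 -0.74 with adjusted p = 0.0492) or with the leukocyte covariate (1 member, 952 genes, Setd2 -0.83 with edgeR adjusted p = 0.026). Without the 3 tumors with high Rps3a2 rows, 2 genes were called. Leaving out each tumor gave 0 to 1 genes (1 without KPY-Ctrl replicate 6), 0 members and a members' median of -0.03 to 0.20. The causes were not tested. Of the 5 members highest per exon length, 2 stayed so with copies per coding length.

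Deviations of same-numbered tumors from their group means correlated at 0.52, 0.60, -0.48, -0.66, 0.66 and -0.36 for replicates 1 to 6, without a steady sign. Whether same-numbered tumors share a mouse or a batch was not tested. With the replicate block, 0 members and 0 genes were called, the members' median was -0.04, and Rps10 had -0.03, Rps29 -0.06, Rps3a1 -0.11 and Rps21 -0.16.

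Signs turned for 14 members in at least 1 fit and for 14 in none, all between values that edgeR did not call. Library size alone gave Rps25 -0.08, Rps29 -0.10, Rps3a1 -0.06 and Rps21 -0.07, and no filter gave Rps29 -0.03 and Rps21 -0.02. Rps24 turned to 0.0031 with RLE size factors and with DESeq2, to 0.01 with the covariate and to 0.06 with limma voom. Named pseudogene rows gave Rps16 0.08. The alternatives with copies or with several tumors left out were chosen after seeing the data. Copies gave Rps12 -0.15, Rps16 0.09 and Rps20 0.09, and with DESeq2 these were -0.14, 0.09 and 0.10, with Rps24 at 0.0034. Copies with the covariate gave -0.15, 0.09 and 0.10, with Rps25 at -0.00023, Rps27a at -0.0022 and Rps24 at 0.01. Without KPY-Setd2KO replicates 7 and 8, which had the fewest counts, Rps10 had -0.09, Rps29 -0.07, Rps3a1 -0.15 and Rps21 -0.19. Without the 3 tumors with high Rps3a2 rows, Rps19 had 0.10, Rps25 -0.02, Rps2 0.003 and Rps24 0.03, and with copies added these were 0.10, -0.02, 0.0024 and 0.03, with Rps12 at -0.11, Rps16 at 0.15 and Rps20 at 0.13.

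Over the 14 fits that each left out 1 tumor, 9 members changed sign, with ranges of -0.18 to 0.12 for Rps18, -0.17 to 0.15 for Rps19, -0.05 to 0.27 for Rps25, -0.14 to 0.18 for Rps29, -0.14 to 0.05 for Rps2, -0.05 to 0.22 for Rps3a1, -0.14 to 0.04 for Rps4x, -0.06 to 0.16 for Rps21 and -0.11 to 0.21 for Rps24. Rps7 stayed between 0.67 and 0.96 and Rps23 between 0.70 and 0.94.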
